A study of Drosophila melanogaster with 24 samples.

Results

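The genes described here encode the protein subunits of the mitochondrial ribosome in Drosophila. They were taken as every gene of the 24-library table whose symbol starts with mRpL or mRpS, the names given to proteins of the large and the small mitoribosomal subunit, and whose mean normalized count was at least 10. This gave 73 genes of the 12126 features in the table, 47 named mRpL and 26 named mRpS, and no gene with such a symbol fell below the minimum. By the current nomenclature of the mitoribosome, mRpS18A and mRpS30 sit in the large subunit despite their names, so that 49 of the 73 genes belong to the large and 24 to the small subunit. Of all 73, 44 have a counterpart in the bacterial ribosome and 29 are particular to mitochondria.

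Mitochondrial ribosomes translate the few messenger RNAs of the mitochondrial genome, which encode core subunits of the respiratory chain and of ATP synthase. Their own proteins are encoded in the nucleus, made by cytoplasmic ribosomes and imported, and they assemble around ribosomal RNAs transcribed inside the organelle. Gcn2 is a kinase that is activated by uncharged tRNAs when amino acids run short, and it restrains initiation of translation in the cytoplasm by phosphorylating eIF2alpha.

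RNA was measured by polyA-selected sequencing of heads and thoraces of once-mated females, with 25 flies pooled in each library. The control strain wDah and the Gcn2 null mutant, a single allele in which a white marker gene stands in place of the complete Gcn2 reading frame, were kept for 3 days on 1 of 4 chemically defined diets. These were the Yaa diet, whose amino acid composition is based on yeast, and the same diet lacking arginine (-R), methionine (-M) or every amino acid (-All). Each of the 8 groups had 3 biological replicates, 24 libraries in all.

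The normalized count of Gcn2 was between 597 and 701 in the 12 wDah libraries and between 106 and 185 in the 12 mutant libraries. The assigned reads per library, estimated from the step between low values, ranged from 21000000 to 31700000. All 9 photoreceptor, 8 flight muscle and 5 neuronal markers of the labelled tissues were detected in every library. With a gap of at least 2 on the log2 scale to the other replicates, germline markers, of which the table lists 7 of 8, stood apart in 4 libraries (wDah -M replicate 1, Gcn2 Yaa replicate 2, Gcn2 -M replicate 2 and Gcn2 -R replicate 1), and follicle cell markers, of which it lists 5 of 19, did so in wDah -All replicate 1. Results that rest on these libraries are given with and without them. When libraries were rescaled to the same total, the median of all features moved to -0.16 (wDah -R), -0.09 (wDah -M), -0.30 (wDah -All), -0.10 (Gcn2 -R), -0.21 (Gcn2 -M) and -0.37 (Gcn2 -All) on the log2 scale against Yaa, to 0.20 for wDah -M against -All and to 0.13 for wDah -R against -All. For that reason the counts of calls under that scaling are given beside the main ones where they differ.

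Most of the mitoribosomal protein mRNAs were present at moderate levels. Measured per length as FPKM, the median level over libraries was 22.4 for the middle gene, with quartiles of 15.3 and 29.5, against 9.35 for all features with a mean of at least 10 and 1046 for the 86 cytoplasmic ribosomal protein genes. Between 10 and 40 FPKM lay 58 of the 73 genes. Large subunit genes had a median of 22.5 FPKM and small subunit genes one of 20.4. The genes with a bacterial counterpart had a median of 24.7 FPKM and those particular to mitochondria one of 18.5.

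The highest level belonged to mRpS5, a small subunit protein with a bacterial counterpart, at a median of 233.4 FPKM and between 209.8 and 312.7 in single libraries. It was followed by mRpS7 (98.0 FPKM, 84.9 to 118.4), another small subunit protein of bacterial descent, and by mRpL28 of the large subunit (78.8 FPKM, 68.2 to 93.2). The libraries of mRpS5 did not overlap those of mRpS7, whereas the ranges of mRpS7 and mRpL28 overlapped. At the lower end were the large subunit genes mRpL48 (10.0 FPKM, 7.41 to 15.1), mRpL11 (9.71 FPKM, 6.88 to 12.8) and mRpL39 (8.07 FPKM, 6.46 to 21.7), whose ranges overlapped one another. The levels of neighbours in the middle of the order overlapped likewise.

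**Figure D1:**
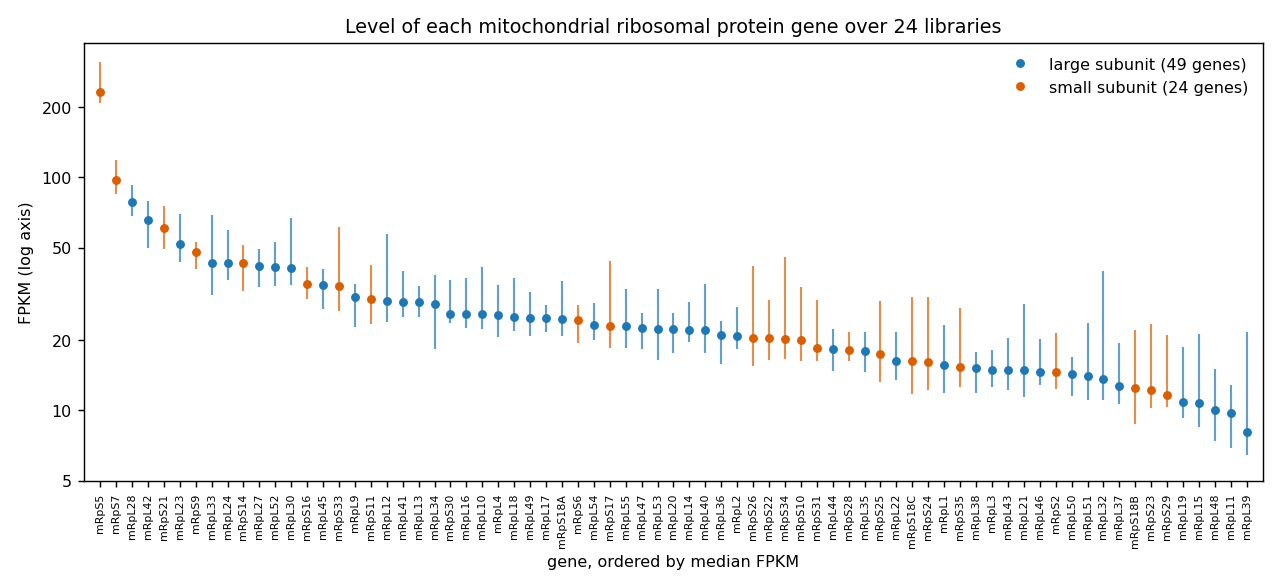
The plot of levels gives, for each of the 73 genes, the median FPKM over 24 libraries (point) and the lowest and highest library (line) on a log axis, with large subunit genes in blue and small subunit genes in orange. mRpS5 stands alone at 233.4 FPKM, and most genes lie between 10 and 40.

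In wDah flies mitoribosomal protein mRNAs rose on the diet without methionine. Of the 73 genes, 18 were higher on -M than on Yaa and none was lower (limma, adjusted p under 0.05), while 25.7% of all features tested were called in this comparison, 15.3% as higher and 10.4% as lower. The median change over the 73 genes was 0.16 on the log2 scale against 0.01 over all features, and 64 of the 73 were above 0. In 39 genes all 3 -M libraries lay above all 3 Yaa libraries, and in 0 genes below (background 24.4% above and 19.9% below). Relative to the mean of the wDah Yaa libraries, the median over the genes was 0.22, 0.12 and 0.11 in the 3 -M libraries, and between -0.02 and 0.03 in the Yaa libraries themselves.

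The gene with the largest change was mRpS17, a small subunit protein with a bacterial counterpart (chromosome 2R, 24173665 to 24174441, minus strand, BDGP6.54 annotation). Its normalized counts were 365.4, 349.4 and 361.8 on -M and 284.2, 301.6 and 260.6 on Yaa. The groups did not overlap, and the level on -M was 27.3% higher, a log2 change of 0.35 ± 0.07 (SE, limma adjusted p = 0.0091). The large subunit gene mRpL19 (chromosome 3R, 8674109 to 8675196, plus strand) held 262.4, 219.9 and 234.2 on -M against 186.0, 193.2 and 187.2 on Yaa. All -M libraries were again above the Yaa libraries (log2 change 0.33 ± 0.08, limma adjusted p = 0.022), although this call was lost in 6 of 15 alternatives, with an adjusted p of up to 0.073 without Yaa replicate 1 and of 0.053 without -M replicate 1. Counts of mRpL28 (chromosome 2L, 4973976 to 4975316, plus strand) were 2119, 2018 and 1920 on -M and 1632, 1627 and 1581 on Yaa, a log2 difference of 0.32 ± 0.04 (limma adjusted p = 0.0017).

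The smallest adjusted p was that of mRpS30, a large subunit protein particular to mitochondria (chromosome X, 15786047 to 15788288, plus strand), whose Yaa libraries were nearly equal. It held 1263, 1203 and 1220 on -M and 988.2, 987.8 and 990.7 on Yaa (log2 change 0.31 ± 0.04, limma adjusted p = 9.8e-04). This gene and the 2 with the highest mRNA levels, mRpS5 (log2 change 0.28) and mRpS7 (0.23), rose by similar amounts. The other genes called rose by between 0.18 (mRpS14) and 0.32 (mRpS10) on the log2 scale.

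The rise on -M involved both subunits, with 11 of 49 large and 7 of 24 small subunit genes called and medians of 0.16 and 0.15. Genes with a bacterial counterpart were called in 14 of 44 cases (median 0.17) and genes particular to mitochondria in 4 of 29 (median 0.15), a difference that was not tested. The 36 genes with the higher mean counts held 12 of the calls and the other 37 held 6, with medians of 0.17 and 0.15.

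The summed germline markers were 1115 to 2926 on -M and 1326 to 1534 on Yaa, and the neuronal markers 23680 to 26330 and 30240 to 31650. Photoreceptor markers summed to 319600 to 372100 on -M against 404500 to 430300 on Yaa, the 9 gut enzymes to 210900 to 249000 against 137700 to 155600, and the 5 fat body and yolk genes to 401300 to 471000 against 266800 to 336300. These 4 lists did not overlap between the diets, and their part in the result was not tested. All 7 germline markers in the table were counted, nos and osk being at 0 in some libraries of the series. The highest germline sum and the highest mitoribosomal median were in the same library, -M replicate 1. Without it 9 of the 73 genes were called, with 22.7% of all features called, and the median was 0.13. In pooled tissue, fewer cells of a type and less RNA per cell cannot be told apart. Leaving out Yaa replicate 1, 2 or 3 gave 8, 11 and 8 calls among the 73 genes, with 16.7%, 18.2% and 16.8% of all features called. Rescaling to the same total gave 7 calls, with 30.3% of all features called. The calls of these refits were all higher and all among the 18. After rescaling the median was 0.06 over the 73 genes against -0.09 over all features.

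**Figure D2:**
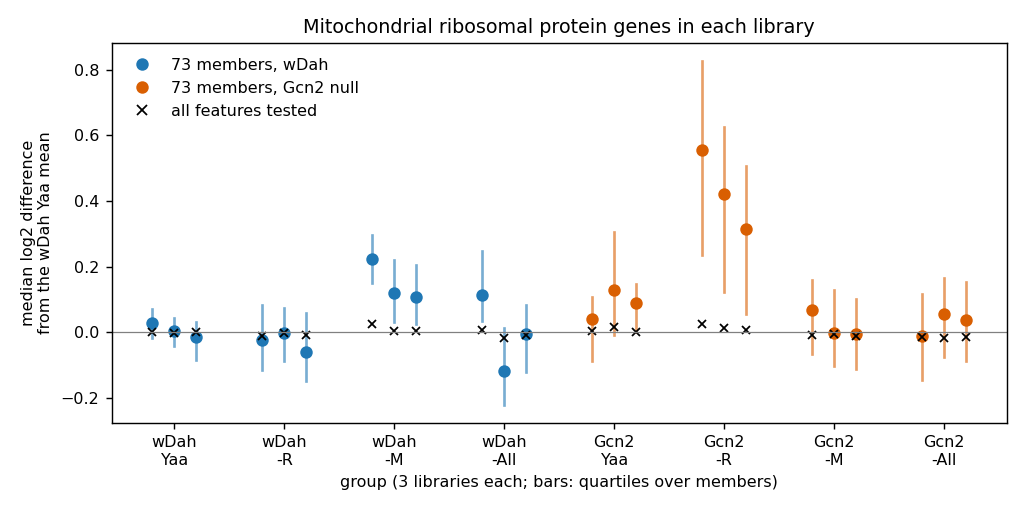
For each of the 24 libraries the plot gives the median log2 difference of the 73 genes from the mean of the wDah Yaa libraries (point) with the quartiles over genes (bar), and the same median over all features tested (cross). The wDah -M libraries lie between 0.11 and 0.22 and the Gcn2 -R libraries between 0.31 and 0.56, while the medians of all features lie between -0.02 and 0.03.

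In the Gcn2 null mutant the same diet gave no called gene. None of the 73 genes passed the test on -M (limma, background 11% of all features called, 8.55% as higher and 2.49% as lower). At an unadjusted p under 0.05 there were 1 higher, mRpS9, and 3 lower, mRpS2, mRpS7 and mRpS35. Over all features 1597 of 10945 were higher and 1040 lower at that threshold, larger shares than among the 73 genes. The median change was -0.06 against -0.05 over all features, and 20 of 73 genes were above 0. In 6 genes all -M libraries lay above all Yaa libraries and in 12 below, where the background was 17.6% and 15.7%. Without Gcn2 Yaa replicate 2, 1 gene was called lower (23.2% of all features called). Without the libraries with high germline markers 1 was called higher (20.2% of all features called). Under rescaling to the same total 3 were called, all lower, with 16% of all features called.

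The difference between the genotypes in their response to -M was tested directly as an interaction, the change in the mutant minus that in wDah. It was negative in 66 of the 73 genes, with a median of -0.21 against -0.04 over all features. After adjustment 4 genes passed, all negative (limma, background 6.93% of all features called, 2.71% as lower and 4.21% as higher). At an unadjusted p under 0.05, 21 were negative and 0 positive. Over all 10985 features, 1149 were negative and 1232 positive at that threshold, and 4923 were above 0.

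For mRpS7 (chromosome 2L, 10386662 to 10387652, plus strand) the counts in wDah were 1636, 1691 and 1606 on -M and 1430, 1360 and 1419 on Yaa. The mutant held 1212, 1249 and 1257 on -M and 1403, 1330 and 1403 on Yaa. The order of the diets was thus opposite in the genotypes without overlap of libraries, and the interaction was -0.38 ± 0.06 (SE, limma adjusted p = 0.0039). The change within the mutant alone, -0.15, did not pass its own test (limma adjusted p = 0.17).

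In mutants mRpS30 held 1078, 1082 and 1075 on -M and 1073, 1097 and 1048 on Yaa, values that overlapped. Its interaction was -0.31 ± 0.06 (limma adjusted p = 0.0099). For mRpS17 the mutant libraries held 274.2, 271.2 and 287.4 on -M against 289.3, 324.8 and 316.4 on Yaa (interaction -0.51 ± 0.11, limma adjusted p = 0.015). Counts of mRpS5 (chromosome 3L, 24537236 to 24543534, plus strand) were 5794, 5694 and 6063 on -M and 6495, 5978 and 6224 on Yaa in mutants, and 7489, 8312 and 7314 against 6359, 6181 and 6481 in wDah, with an interaction of -0.37 ± 0.08 (limma adjusted p = 0.015). These 4 genes were among the 18 that rose in wDah, a relation that rests in part on the wDah libraries common to both tests. They are also free of exons shared with another gene. Leaving out Gcn2 Yaa replicate 2 raised the number called to 7, with 11.6% of all features called. The median without the libraries with high germline markers was -0.14 with 4 called, and 9.62% of all features were called.

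**Figure D3:**
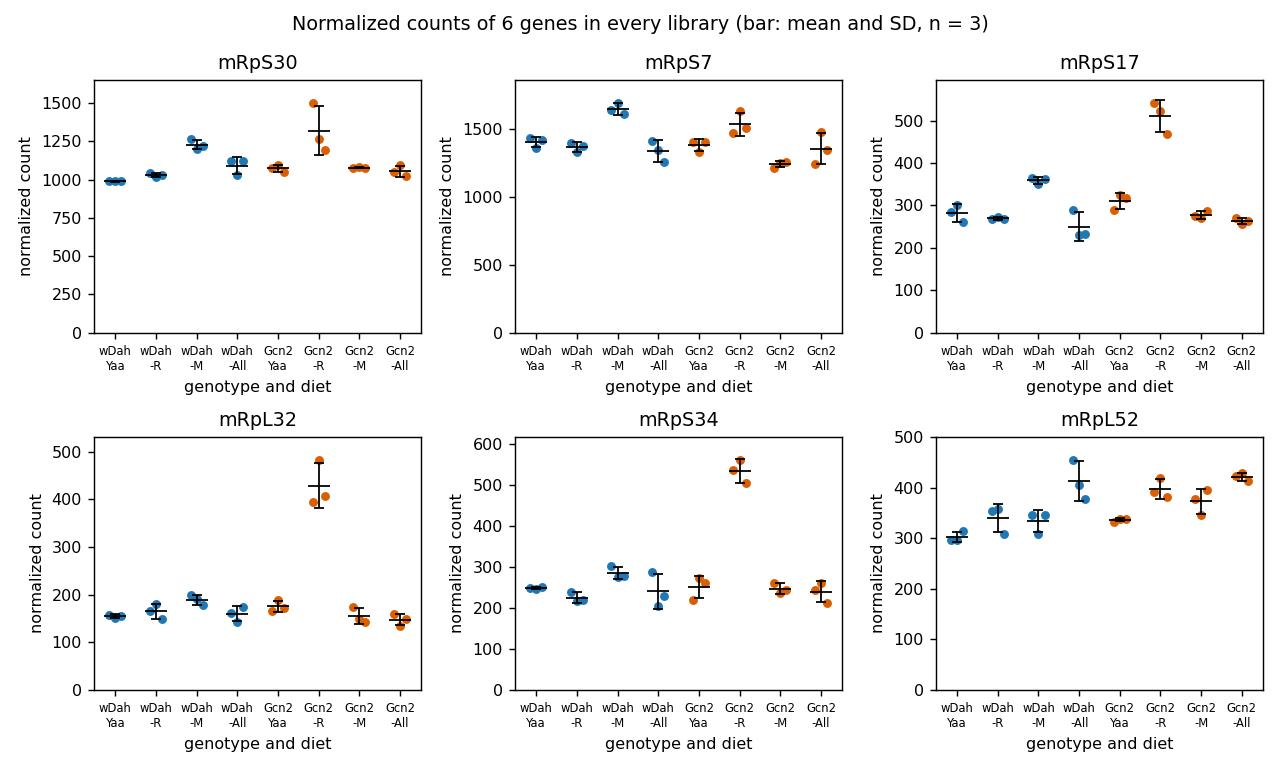
Normalized counts of mRpS30, mRpS7, mRpS17, mRpL32, mRpS34 and mRpL52 in each of the 24 libraries (points; wDah blue, Gcn2 null orange), with the mean and SD of each group of 3 (bars). mRpS30, mRpS7 and mRpS17 are higher on -M than on Yaa in wDah, and mRpL32 and mRpS34 stand out in the mutant on -R, at 395.7 to 483.2 and 503.2 to 560.7.

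Removal of arginine from the diet of wDah flies left the mitoribosomal genes near their Yaa level. On -R 2 of 73 genes were lower and none higher (limma, background 22.8% of all features called, 8.98% as lower and 13.8% as higher), and the median change was -0.04 against -0.01 over all features. The cytoplasmic ribosomal protein genes, encoding the proteins of the other ribosome of the cell, fell on this diet in 82 of 86 cases with a median of -0.34. The groups of 9 mitoribosomal genes lay wholly above and those of 11 wholly below Yaa, where the background was 21% and 20.1%.

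Both genes that fell belong to the large subunit and have a bacterial counterpart. Counts of mRpL4 (chromosome 2L, 16328059 to 16329132, minus strand) were 437.2, 485.4 and 420.8 on -R against 560.6, 549.4 and 507.4 on Yaa (log2 change -0.27 ± 0.07, limma adjusted p = 0.026). Those of mRpL1, the protein of the L1 stalk (chromosome 3R, 8301440 to 8302770, plus strand), were 349.6, 290.8 and 329.8 against 391.8, 384.5 and 386.3 (log2 change -0.26 ± 0.07, limma adjusted p = 0.037). In neither gene did the diets overlap. Neither call withstood every change of libraries: none was left without Yaa replicate 1, Yaa replicate 2 or -R replicate 3, and 1 without Yaa replicate 3 or -R replicate 2. Rescaling to the same total gave 28 calls, all lower, with 44.2% of all features called.

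In the Gcn2 null mutant the removal of arginine raised mitoribosomal genes, with wide differences among them. On -R 20 of the 73 genes were higher than on Yaa and none was lower (limma, background 21.9% of all features called, 17.3% as higher and 4.6% as lower). The median change was 0.31 against -0.03 over all features (0.23 against -0.10 after rescaling to the same total), 64 of 73 genes were above 0, and single genes ranged from -0.32 to 1.28. The libraries of 45 genes lay wholly above Yaa and those of 4 wholly below, mRpL9, mRpL27, mRpS16 and mRpL50, where the background was 26.6% and 21.6%. None of these 4 passed the test.

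The change was largest in mRpL32, a large subunit protein with a bacterial counterpart (chromosome 3R, 31252872 to 31253686, plus strand). Mutant libraries held 395.7, 483.2 and 408.0 on -R and 166.0, 189.1 and 171.4 on Yaa, so every -R library was above every other library of the series, and the level was 143% higher (log2 change 1.28 ± 0.13 SE, limma adjusted p = 0.0011). The gene mRpS34 encodes a small subunit protein particular to mitochondria whose human counterpart is mutated in a form of Leigh syndrome (chromosome 3L, 16348074 to 16348782, plus strand). Its counts were 535.2, 560.7 and 503.2 on -R and 219.9, 271.5 and 259.5 on Yaa (log2 change 1.09 ± 0.12, limma adjusted p = 0.0018). The small subunit gene mRpS33, also particular to mitochondria (chromosome 3R, 16436045 to 16436597, minus strand), held 394.9, 430.7 and 371.9 against 213.1, 217.3 and 251.7 (log2 change 0.81 ± 0.12, limma adjusted p = 0.006).

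The other 17 genes called rose by 0.42 (mRpL18) to 0.75 (mRpL21) on the log2 scale. A change of 0.95 in mRpL39, a gene singled out after its values were seen, missed the threshold (limma adjusted p = 0.071). It held 489.3, 423.6 and 351.6 on -R against 160.0, 343.4 and 180.8 on Yaa, and the highest Yaa value came from replicate 2, the library with the highest germline marker sum. The 3 genes with the highest mRNA levels, mRpS5, mRpS7 and mRpL28, changed by 0.07, 0.15 and 0.27, and none of them passed the test.

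Small subunit genes were called in 7 of 24 cases (median 0.40) and large subunit genes in 13 of 49 (median 0.27). The 37 genes with lower levels held 14 of the calls (median 0.44) and the other 36 held 6 (median 0.27), the reverse of the order seen in wDah on -M. Neither contrast was tested.

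Markers of other cell types moved in the same libraries. In mutants on -R the 5 neuronal markers summed to 9266 to 21540 normalized counts against 23660 to 30340 on Yaa, the 9 photoreceptor markers to 247000 to 275300 against 283100 to 404700, the 8 flight muscle markers to 149300 to 203700 against 207700 to 262300 and the 9 gut enzymes to 51740 to 77160 against 136000 to 160700. The 5 fat body and yolk genes summed to 459600 to 828700 against 387800 to 405200, and in all 5 lists the diets did not overlap. No marker of these lists was at 0 in any library, and their part in the result was not tested. The germline markers summed to 981.9 to 8912 on -R and 1388 to 11780 on Yaa. In mutants on -M the library with the highest germline sum, replicate 2 (3324), had a mitoribosomal median of -0.002, below that of replicate 1 (0.067). Within mutants on -R and within mutants on Yaa the library with the highest germline sum also had the highest mitoribosomal median. These were -R replicate 1 and Yaa replicate 2, with medians of 0.56 and 0.13 relative to wDah Yaa. Without this pair of libraries, 43 genes were called higher and 3 lower, with a median of 0.34, and 57.6% of all features were called. Without Gcn2 Yaa replicate 1, Gcn2 Yaa replicate 3 or -R replicate 2 the number called was 7, 8 and 8, all of them among the 20. With the replicate number as a block in the fit, 4 of the 20 were called, with 10.7% of all features called.

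**Figure D4:**
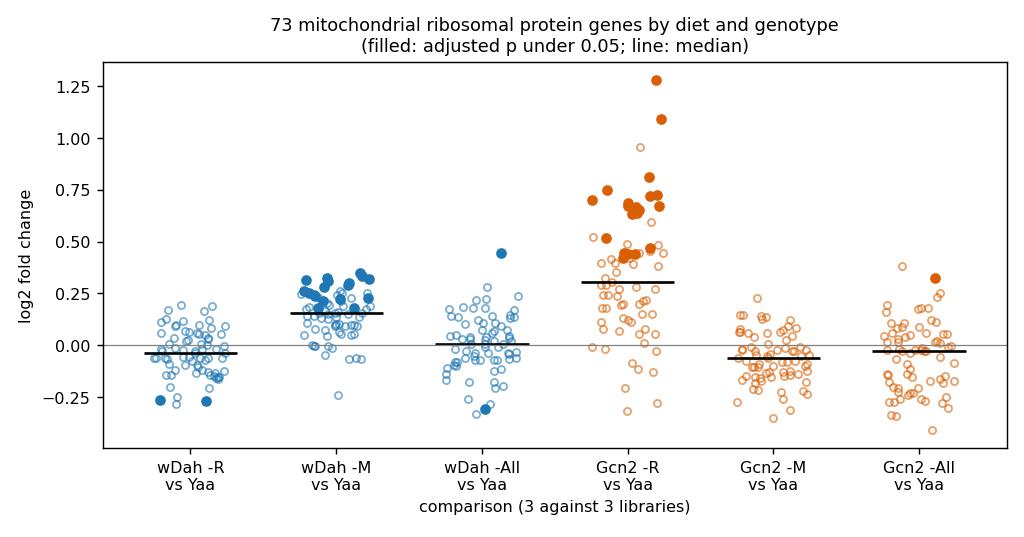
Each point is the log2 fold change of 1 of the 73 genes on a diet against Yaa in 1 genotype, filled where the limma adjusted p was under 0.05, with the median as a line. The medians are 0.16 for wDah on -M and 0.31 for the mutant on -R, and between -0.06 and 0.01 for the other 4 comparisons.

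The genotypes differed in their response to -R by the interaction test in 26 genes, all with the larger value in the mutant (limma, background 21.5% of all features called, 15.9% as higher and 5.63% as lower). The median interaction was 0.35 against -0.03 over all features, and 66 of 73 were above 0. Called were 11 of 24 small and 15 of 49 large subunit genes. Without wDah Yaa replicate 1 the number was 15, without wDah -R replicate 3 it was 17 and without Gcn2 Yaa replicate 1 it was 17. Of all features 16.6%, 17% and 16.9% were called in these refits. Without the libraries with high germline markers it was 39 positive and 1 negative, and 50.5% of all features were called.

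The largest interactions were those of mRpS34 (1.23 ± 0.13 SE, limma adjusted p = 8.1e-05) and mRpL32 (1.19 ± 0.15, limma adjusted p = 2.6e-04). In wDah mRpS34 held 239.2, 217.0 and 217.8 on -R and 247.2, 245.0 and 251.4 on Yaa, and mRpL32 held 165.6, 180.1 and 148.7 against 157.6, 149.8 and 155.1. Neither change in wDah passed its test. For mRpS18C, a small subunit protein with a bacterial counterpart (chromosome 3R, 30423974 to 30424556, plus strand), mutants held 219.1, 242.1 and 222.1 on -R and 148.9, 148.7 and 130.9 on Yaa. In wDah the values were 100.7, 115.2 and 107.8 against 130.0, 113.1 and 119.3, and the interaction was 0.83 ± 0.15 (limma adjusted p = 0.0021). The stalk protein gene mRpL10 (chromosome 2L, 203779 to 204782, plus strand) held 676.3, 696.8 and 619.5 against 393.7, 428.2 and 444.9 in mutants and 434.0, 416.1 and 377.9 against 456.4, 453.3 and 446.8 in wDah. Its -R libraries were thus above Yaa in mutants and below Yaa in wDah without overlap (interaction 0.80 ± 0.11, limma adjusted p = 5.6e-04).

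The rises in wDah on -M and in mutants on -R come from 2 comparisons with no library in common. Called in both were mRpL16, mRpL19, mRpL21, mRpL24, mRpL30, mRpL32 and mRpS17, which are 7 genes, or 38.9% of the 18 and 35.0% of the 20. Of all 73 genes, 27.4% were called in mutants on -R and 24.7% in wDah on -M. The overlap was not tested. All 7 have a bacterial counterpart, as do 44 of the 73 genes. As a description over 73 genes, which are not independent, the changes correlated with Pearson's r of 0.28 and Spearman's rho of 0.29.

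**Figure D5:**
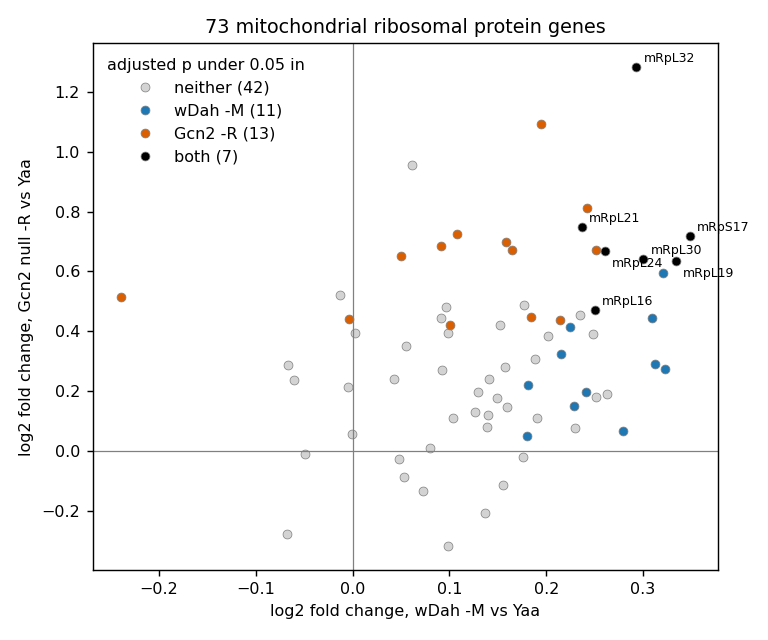
The log2 fold change of each of the 73 genes in wDah on -M (horizontal axis) is set against that in the Gcn2 null mutant on -R (vertical axis), coloured by the comparison in which the limma adjusted p was under 0.05. Named are the 7 genes called in both, and the highest point is mRpL32, at 0.29 and 1.28.

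Without any amino acid the mitoribosomal genes stayed near their Yaa level in both genotypes. In wDah 1 gene was higher and 1 lower (limma, background 35.4% of all features called, 19.7% as higher and 15.7% as lower), with a median of 0.01 against -0.02 over all features. In mutants 1 was higher and none lower (background 14.1%, with 10.6% higher and 3.54% lower), with a median of -0.03 against -0.05. The interaction called none of the 73 genes (background 0.882%, with 0.391% higher and 0.491% lower). At an unadjusted p under 0.05 there was 1, against 1113 of 11000 features. It was mRpL20, at -0.36 (limma adjusted p = 0.42). The next smallest p-values were those of mRpS30 (-0.17, adjusted p = 0.50) and mRpL22 (-0.34, adjusted p = 0.51).

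The gene that rose in both genotypes was mRpL52, a large subunit protein particular to mitochondria (chromosome 2R, 7673721 to 7674400, minus strand). It held 455.0, 405.2 and 377.2 on -All and 295.4, 296.8 and 313.8 on Yaa in wDah (log2 change 0.44 ± 0.08 SE, limma adjusted p = 0.0047). In mutants the values were 423.6, 428.6 and 413.4 against 332.9, 338.5 and 337.4 (0.33 ± 0.08, limma adjusted p = 0.044). The libraries did not overlap in either genotype. The change in mutants was called with Gcn2 Yaa replicate 2 left out and not with any other library left out, and rescaling to the same total left 0.16 in wDah (adjusted p = 0.13) and 0.01 in mutants (adjusted p = 0.96).

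In wDah mRpS11, a small subunit protein with a bacterial counterpart (chromosome 3R, 17072732 to 17073795, plus strand), fell from 398.7, 409.0 and 423.9 on Yaa to 360.2, 299.6 and 335.9 on -All (log2 change -0.31 ± 0.08, limma adjusted p = 0.02). It was not called when any 1 of the 3 Yaa libraries was left out. Without -All replicate 1, the library with high follicle cell markers, 1 gene was higher and 5 were lower (34.1% of all features called). Without -All replicate 2 there were 5 higher and 1 lower (35.1% of all features called). After rescaling to the same total 42 genes in wDah and 39 in mutants were called, all lower, with 62.4% and 45.5% of all features called. The summed follicle markers were 321.9 to 1781 on -All in wDah against 48.8 to 71.8 on Yaa. In wDah the fat body and yolk genes summed to 2690000 to 3088000 against 266800 to 336300. Gut enzymes summed to 295100 to 316900 against 137700 to 155600. Photoreceptor markers (286200 to 363600 against 404500 to 430300) and neuronal markers were lower without overlap. In mutants fat body and yolk genes were also higher (2728000 to 3550000 against 387800 to 405200), as were gut enzymes. Germline markers in mutants summed to 1028 to 1383 on -All and 1388 to 11780 on Yaa, ranges that nearly met. Their median on the log2 scale was 6.74, 4.65 and 5.15 on -All and 4.83, 9.68 and 4.94 on Yaa, which overlapped. The part of these lists in the result was not tested.

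Compared directly in wDah, mitoribosomal genes were higher on -M than on -R in a larger share than all features were, whereas against -All their share was at the background. Against -R 14 of 73 genes were higher and none lower (limma, background 14.5% of all features called, 7.7% as higher and 6.77% as lower), with a median of 0.18 against 0.01 over all features. Against -All 5 were higher and none lower (background 17.2%, with 6.94% higher and 10.3% lower), with a median of 0.15 against 0.01, and these were mRpS17, mRpL30, mRpL53, mRpS5 and mRpS7. On -R compared with -All only mRpS5 was called (background 10.6%, with 3.71% higher and 6.94% lower), at 6882, 6604 and 6858 against 6187, 5825 and 5776 (log2 difference 0.19 ± 0.04, limma adjusted p = 0.032), a call kept with -All replicate 1 left out and lost with any other library left out. These comparisons share libraries with one another and with those against Yaa.

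Of the differences called between -M and -R, the largest were those of mRpL55 (0.42 ± 0.09, limma adjusted p = 0.019), mRpS17 (0.41 ± 0.06, limma adjusted p = 0.0044) and mRpL30 (0.36 ± 0.07, limma adjusted p = 0.013). Counts of mRpL55 were 177.4, 178.7 and 164.4 on -M and 127.7, 124.2 and 136.1 on -R, without overlap. Between -M and -All the largest called were those of mRpS17 (0.53 ± 0.10, limma adjusted p = 0.011), mRpL30 (0.44 ± 0.09, limma adjusted p = 0.014) and mRpL53 (0.43 ± 0.09, limma adjusted p = 0.017). A larger difference between -M and -R, that of mRpL34 (0.51 ± 0.20), was not called (limma adjusted p = 0.12). For mRpL30 the counts were 627.8, 561.3 and 624.8 on -M, 502.2, 447.4 and 460.6 on -R and 499.0, 413.3 and 428.9 on -All. The number called between -M and -R was 5, 9 and 8 without -M replicate 1, 2 or 3 (9.89%, 10.1% and 10.8% of all features called). It was 11, 7 and 6 without -R replicate 1, 2 or 3 (8.34%, 8.88% and 7.91% of all features). That between -M and -All was 3 without -M replicate 3 and 13 without -All replicate 1 (10.6% and 16.9% of all features). Rescaling to the same total gave 28 and 45 calls, all higher on -M, with 16.3% and 39.6% of all features called.

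On the complete diet no mitoribosomal gene differed between the genotypes after adjustment (limma, background 2.69% of all features called, 1.38% as higher and 1.31% as lower). At an unadjusted p under 0.05, 5 genes were higher in mutants (mRpS24, mRpL51, mRpS35, mRpL48 and mRpL19) and none lower, while 910 of 11006 features were higher and 1029 lower. The median difference was 0.10 against 0.02 over all features, and 55 of 73 were above 0. The median without Gcn2 Yaa replicate 2 was 0.06.

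Other genes of mitochondrial gene expression were taken from a list fixed by symbol. The mitoribosomal proteins with names of their own on this list, bonsai and tko (technical knockout), changed by 0.21 (limma adjusted p = 0.027) and 0.19 (adjusted p = 0.10) in wDah on -M. In bonsai the interaction for -M was -0.43 (adjusted p = 0.038). Of 9 translation factors of mitochondria, 3 rose in wDah on -M and 3 in mutants on -R (33.3% in each), and none fell. Among all features 15.3% rose and 10.4% fell in the first comparison, and 17.3% and 4.6% in the second. The difference was not tested. The factors called were the elongation factor genes mEFTu1 (0.39) and mEFTu2 (0.22) and the initiation factor gene mIF2 (0.55) on -M. On -R they were mIF2 (1.12), mIF3 (0.97) and the elongation factor gene mEFTs (0.49), as log2 changes. The gene mIF2 thus rose in both.

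Among 15 mitochondrial tRNA synthetases, which charge tRNAs inside the organelle, 4 rose and none fell in each of these comparisons, with medians of 0.19 and 0.43. This was 26.7% of the list, against 15.3% and 17.3% of all features called higher, a difference that was not tested. AlaRS-m (0.35 and 0.58) and AspRS-m (0.17 and 0.81) were called in both. Of 11 factors that maintain or express mitochondrial DNA, 5 (45.5%) rose in wDah on -M, among them TFAM, which packages mitochondrial DNA (0.24), Lrpprc2 (0.50) and bsf (0.30). Only bsf rose in mutants on -R (0.85), a share of 9.09% that was below that of all features. In mutants on -M, where 11% of all features were called, 0 translation factors and 0 synthetases were called, and Lrpprc2 was higher (0.41, limma adjusted p = 0.019).

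Nuclear genes of oxidative phosphorylation, chosen by symbol and including assembly factors, behaved differently from the mitoribosomal genes across diets. In wDah they were called higher in 37 (-R), 42 (-M) and 58 (-All) of 68 genes tested, with 1, 0 and 1 lower. In mutants the numbers were 0 (-R), 14 (-M) and 42 (-All), with 0 lower on each diet. Of all features, 13.8%, 15.3% and 19.7% were called higher in wDah and 17.3%, 8.55% and 10.6% in mutants, in the same order of diets. The diet with the most calls among mitoribosomal genes in mutants, -R, was thus the one without a call in this list. There 4 genes were lower and 0 higher at an unadjusted p under 0.05, against 1573 lower and 2600 higher of 10937 features. Cytoplasmic ribosomal protein genes had 1 higher and 4 lower of 86 in wDah on -M (background 15.3% and 10.4%), with a median of -0.06. In mutants on -R 8 were higher and 14 lower (background 17.3% and 4.6%), with a median of -0.02. The comparisons within a genotype share their Yaa libraries.

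The mitoribosomal genes are compactly placed. In the BDGP6.54 annotation all 73 were found by identifier, 12 on 2L, 12 on 2R, 17 on 3L, 21 on 3R and 11 on X. A divergent neighbour started within 1000 bases upstream of 56 genes (76.7%), against 39.8% of 9990 protein-coding genes of the table with a mean of at least 10. Exons of 43 of the 73 (58.9%, against 34.1%) overlapped those of another gene, mostly on the other strand, and since the sources used here do not say that strand was used in counting, the values of these genes are uncertain.

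The changes were present in genes with and without such overlap. Of the 30 genes without it, 8 were called in wDah on -M (median 0.17) and 6 in mutants on -R (median 0.29), and of the 43 with it 10 (median 0.16) and 14 (median 0.33). For mRpL32 the overlapping gene CG1750 rose as well in mutants on -R (0.83, limma adjusted p = 0.036). So did Torsin, the partner of mRpL30 (0.63, adjusted p = 0.027), and Psn, the partner of mRpL15 (0.50, adjusted p = 0.041). In the interaction for -R, CG1750 (0.83, limma adjusted p = 0.035) and Psn (0.51, adjusted p = 0.022) were called. Also called were CG4278 with mRpL4 (0.98, adjusted p = 0.003), mib1 with mRpS31 (0.45, adjusted p = 0.03) and CG33155 with mRpL53 (0.33, adjusted p = 0.0445). AGO1, another partner of mRpL53, and the partners of mRpL10, mRpL18, mRpL30, mRpL51, mRpS18C, mRpS24, mRpS25, mRpS33 and mRpS34 were not. The partners of mRpS34 (Golgin104, -0.33, adjusted p = 0.22), mRpS33 (CG14881, -0.40, adjusted p = 0.29) and mRpL10 (CG11617, -0.31, adjusted p = 0.33) had values of the opposite sign and were not called. In wDah on -M the partner of mRpL28, Gmd, changed by -0.01 (adjusted p = 0.96). On that diet CG1750 changed by 0.40 (adjusted p = 0.065), and mRpL32 itself by 0.29. In wDah on -R the partners of mRpL4 (CG4278, 0.01, adjusted p = 0.96) and mRpL1 (nac, 0.17, adjusted p = 0.38) were not called.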

How the data were processed

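The authors sequenced 100 bp single-end reads, assigned them to BDGP6.32 transcripts (Ensembl release 103) with kallisto 0.46.2 and normalized the estimated counts with DESeq2 1.24.0 in R 3.6.3. Per the file headers, the deposited signal is the normalized count (estimated counts divided by size factors), given in a table of 24 libraries and in 6 tables of 6 libraries, and the first table also gives the authors' FPKM, used here for levels. Columns with the authors' fold changes and p-values were not used. About 81.2% of low values (median over libraries) were whole multiples of a step, within 0.02, so no count model was fitted.

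Log2(normalized count + 1) of features with a mean of at least 10 over the libraries compared was fitted with limma 3.58.1 in R 4.3.3 (lmFit, eBayes with trend, two-sided, Benjamini-Hochberg adjustment over all features tested, called under 0.05), each of 13 comparisons on its own libraries. Fold changes are on this scale, which understates changes of low genes. The median standard error over the genes was 0.07 to 0.12 in the 6 comparisons with Yaa. The fits were tested on simulated data. Interactions used 12 libraries. Alternatives were the 6-library tables, a single fit of all libraries, rescaling to the same total, a pseudocount of 5, no filter, a replicate block, follicle or germline scores as covariates, and libraries left out; the germline alternatives were added after the data were seen. Replicate numbers were checked for pairing: deviations of same-numbered libraries correlated above 0.1 in all 3 pairs only between Gcn2 -M and Gcn2 Yaa (0.27, 0.49 and 0.23), where the blocked fit also called 0 genes. P-values measure the spread between these libraries.

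Members, lists and tests were chosen with earlier results of these data known. Genes named are, for each comparison, the 3 called genes with the largest change in each direction, for interactions also the 3 smallest p-values, those called against the main direction, and the 3 highest and lowest levels; others are examples chosen after their values were seen. Gene positions were read from BDGP6.54, newer than the annotation of the counts. Summaries and figures were made in Python 3.11.15 (pandas 2.3.3, matplotlib 3.10.9).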

Additional observations from a re-analysis of the deposited data

Results flagged for a closer look

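The response to -R differed between the genotypes by the interaction test in 26 of 73 mitoribosomal genes (limma, adjusted p under 0.05), a test that called 21.5% of all features. The named genes among them were mRpS34 (1.23 on the log2 scale), mRpL32 (1.19), mRpS18C (0.83) and mRpL10 (0.80), each with the larger change in the Gcn2 null mutant.

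The response to -M differed between the genotypes in 4 genes by the same test, with the lower change in the mutant, while it called 6.93% of all features. These were mRpS17 (-0.51), mRpS7 (-0.38), mRpS5 (-0.37) and mRpS30 (-0.31). Groups of 3 libraries are too small for a test of single outlying samples.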

How the results depend on the processing

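The counts of calls kept no fixed size across settings. The single fit of all 24 libraries called 9 genes in wDah on -M, 50 in mutants on -R (48 higher, 2 lower; 9.39% and 54.2% of all features), 0 in wDah on -R, 1 in mutants on -M, 10 in mutants on -All (4 higher, 6 lower, a reversed balance), 7 for -M against -R, 8 for -M against -All and 2, both lower, for -R against -All. Rescaling to the same total gave 28 lower (wDah -R), 7 higher (wDah -M), 42 lower (wDah -All), 3 lower (Gcn2 -M), 39 lower (Gcn2 -All), 28 higher (-M against -R) and 45 higher (-M against -All). The follicle score as a covariate gave 1 (wDah -R), 11 (wDah -M), 4 (wDah -All), 7 (Gcn2 -All, 3 higher and 4 lower, again reversed), 7 (-M against -R) and 9 (-M against -All) calls, and without the library with high follicle markers there were 6 (wDah -All) and 13 (-M against -All). The germline score as a covariate gave 1 (wDah -R), 1 (wDah -All), 39 (Gcn2 -R), 3 (Gcn2 -All), 9 (-M against -All) and 0 (-R against -All), and without the libraries with high germline markers there were 9 (wDah -M), 46 (Gcn2 -R), 1 (Gcn2 -M), 40 (interaction for -R) and 5 (-M against -R). Without a filter on low values 0 genes were called in mutants on -All.

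With the replicate block 4 of the 20 genes were called in mutants on -R, 1 in wDah on -R, 0 in mutants on -All and 0 for -R against -All; in wDah on -M 12 were called. Same-numbered libraries correlated between -0.50 and 0.49 over 10 pairs of groups. All 3 pairs were above 0.1 only for Gcn2 -M and Yaa. With 3 libraries a group this check cannot exclude pairing in the other comparisons.

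Leaving out 1 library gave 0 to 2 (wDah -R), 8 to 16 (wDah -M), 1 to 6 (wDah -All), 7 to 29 (Gcn2 -R), 0 to 1 (Gcn2 -M), 0 to 1 (Gcn2 -All), 15 to 37 (interaction for -R), 4 to 7 (interaction for -M), 5 to 11 (-M against -R), 3 to 13 (-M against -All) and 0 to 1 (-R against -All) calls. In these refits the share of all features called was 16.7% to 23.7% (wDah -M) and 10.9% to 29.6% (Gcn2 -R). It was 16.6% to 34.1% for the interaction for -R and 4.66% to 11.6% for that for -M. Between diets it was 7.91% to 10.8% (-M against -R) and 10.6% to 16.9% (-M against -All). Medians near 0 changed sign. That of the interaction for -All, -0.04, became 0.0079, 0.012 and 0.008 with the follicle score, without the library with high follicle markers and with the germline score, and ranged from -0.12 to 0.01 with 1 library left out. That of -R against -All, -0.03, became 0.11 after rescaling, 0.038 with the follicle score, 0.024 without that library (-All replicate 1) and 0.10 with the germline score, and ranged from -0.11 to 0.02. That of wDah -All ranged from -0.07 to 0.06. The medians of wDah on -M (0.13 to 0.18) and of mutants on -R (0.25 to 0.40) kept their sign with 1 library left out, and rescaling to the same total moved them to 0.06 and 0.23. For single genes named and called, 372 refits kept the call, 52 lost it and 0 reversed it. The causes were not tested. With 3 libraries a group, changes of the size of 1 standard error, about 0.1, cannot be resolved for single genes.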
